A study of Mus musculus with 12 samples.

Results

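The genes described here are 10 transporters through which platinum drugs and copper enter and leave cells. They are the copper transporters Slc31a1 and Slc31a2, the copper pumps Atp7a and Atp7b, the exporters Abcc1, Abcc2, Abcc3, Abcc4 and Abcc5, and the cation exporter Slc47a1. They were chosen by name, with earlier results of these data known. Each was read from the probe set that carries its symbol alone and has the highest mean over all arrays. All 10 were measured, out of 17097 genes on the array. Signals are log2 values after RMA (robust multi-array average), so a difference of 1 is a doubling of signal, and differences of dim genes are understated.

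The mouse colon carcinoma line CT26, grown in culture, was measured on Affymetrix arrays in 4 groups of 3. STS+OXP cells were starved (STS) for 48 hours, at 0.5 g/L glucose with 1% serum, and also received the platinum drug oxaliplatin (OXP). OXP cells received the drug at 1.0 g/L glucose with 10% serum. STS cells were starved without drug, and control (CTR) cells had 1.0 g/L glucose, 10% serum and no drug. The labels give 10 µM OXP, started after 24 hours, whereas a legend of the study names a higher concentration. The sources do not state if replicate arrays stem from separate cultures, so p-values measure only the spread between arrays, which may be technical.

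Platinum drugs have no carrier of their own. SLC31A1 (CTR1) brings reduced copper across the plasma membrane and also admits platinum compounds, and ATP7A and ATP7B pump copper, and platinum with it, into vesicles and out of the cell. ABCC proteins (the multidrug resistance proteins) use ATP to export organic anions, among them glutathione conjugates, in which platinum can leave the cell.

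The promoter windows of the 3 copper carriers with signal are shown first, because 2 of them lie close together on 1 chromosome and Atp7a changed in the opposite direction to Slc31a1. RefSeq windows of 300 bases, 250 before and 50 after a start site of GRCm38.p6, were at hand for 7 of the 10 genes. Capitals mark the GC box GGGCGG bound by Sp1, the core of the metal response element (TGCACNC or TGCGCNC) and the core of the antioxidant response element (TGACNNNGC), each searched on both strands. The windows are Slc31a1 at chr4:62360451-62360750, Slc31a2 at chr4:62286179-62286478 and Atp7a at chrX:106026974-106027273, all on the plus strand.
Slc31a1: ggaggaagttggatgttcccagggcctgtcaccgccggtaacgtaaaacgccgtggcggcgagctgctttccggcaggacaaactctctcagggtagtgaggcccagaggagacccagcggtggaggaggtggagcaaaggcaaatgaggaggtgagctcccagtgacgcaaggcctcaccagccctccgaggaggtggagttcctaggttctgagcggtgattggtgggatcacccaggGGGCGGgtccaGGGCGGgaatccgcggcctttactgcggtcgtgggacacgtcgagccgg
Slc31a2: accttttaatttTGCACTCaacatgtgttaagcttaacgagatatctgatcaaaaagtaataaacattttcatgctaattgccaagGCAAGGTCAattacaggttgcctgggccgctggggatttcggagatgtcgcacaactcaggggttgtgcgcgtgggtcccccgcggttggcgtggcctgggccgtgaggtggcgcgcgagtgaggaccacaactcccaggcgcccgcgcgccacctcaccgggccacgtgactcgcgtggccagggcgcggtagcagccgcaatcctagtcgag
Atp7a: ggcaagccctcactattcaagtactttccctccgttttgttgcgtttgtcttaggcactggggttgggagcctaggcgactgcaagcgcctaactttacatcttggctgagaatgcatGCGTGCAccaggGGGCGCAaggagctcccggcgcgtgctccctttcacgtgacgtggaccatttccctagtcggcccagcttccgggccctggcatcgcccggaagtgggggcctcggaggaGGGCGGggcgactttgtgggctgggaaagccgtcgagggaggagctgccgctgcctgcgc
The Slc31a1 window held 2 GC boxes and neither of the other cores, and the Slc31a2 window held no GC box, 1 metal response core and 1 antioxidant response core. The Atp7a window held 1 GC box and 2 metal response cores. Of all 32851 such windows, 35.66% held a GC box, 25.7% a metal response core and 12.39% an antioxidant response core, so a match is a description and not a binding site. In RefSeq only Fkbp15 lies between Slc31a2 and Slc31a1 among protein-coding genes. Fkbp15 runs on the opposite strand, and 204 bases of the Slc31a1 window are also in its own window.

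Of the 10 transporters, 6 were above background in every group, namely Slc31a1, Slc31a2, Atp7a, Abcc1, Abcc4 and Abcc5. Background was taken as the highest of 22 control probe sets with no mouse target, which lay between 3.21 and 3.72 log2 over the arrays. In all, 9997 of the 17097 genes exceeded it in at least 1 group. The other 4 transporters did not exceed it in any group. Atp7b, the copper pump of the liver, lay between 3.02 and 3.37 on the 12 arrays, and Abcc2, which exports conjugates into bile, between 2.35 and 2.58. Abcc3, the exporter of the basolateral membrane, lay between 2.96 and 3.48, and Slc47a1 (MATE1), which exchanges organic cations for protons in kidney and liver, between 2.39 and 2.65. The probe sets of these 4 gave only an upper limit, so no change is given for them.

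Several facts bear on the arrays as a whole. OXP replicate 1 had a Gapdh signal 3.85 log2 units higher at the 3′ than at the 5′ control set, against -0.12 to 0.28 on the other arrays, a sign of RNA quality. Distances between arrays were root mean squares over the 17097 genes, averaged over the arrays of a group. OXP replicate 2 lay 0.173 log2 units from the STS+OXP arrays and 0.298 from the other OXP arrays. OXP replicate 3 was likewise nearer to STS+OXP, at 0.242 against 0.274. For OXP replicate 1 these distances were 0.344 and 0.321. Of 11 measured markers of colon epithelium 4 were above background (Epcam, Krt8, Krt20 and Cdx2), while Cdh1, Krt18, Krt19 and Vil1 were not, and all 7 mesenchymal markers were. Of 6 macrophage markers 3 were above background, with Csf1r, Lyz2 and Itgam not. The log2 of the summed signal of these 6 was 7.96 to 8.06 in STS+OXP, 8.06 to 8.68 in OXP, 7.36 to 7.47 in STS and 7.39 to 7.57 in CTR. Relative to CTR only Cd14 was called higher in STS+OXP (0.72), and only Cd14 (1.17) and Cd68 (1.47) in OXP. The SD of Cd68 over the OXP arrays was 1.17. No macrophage marker was called in STS. The part of these in the results was not tested.

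**Figure D1:**
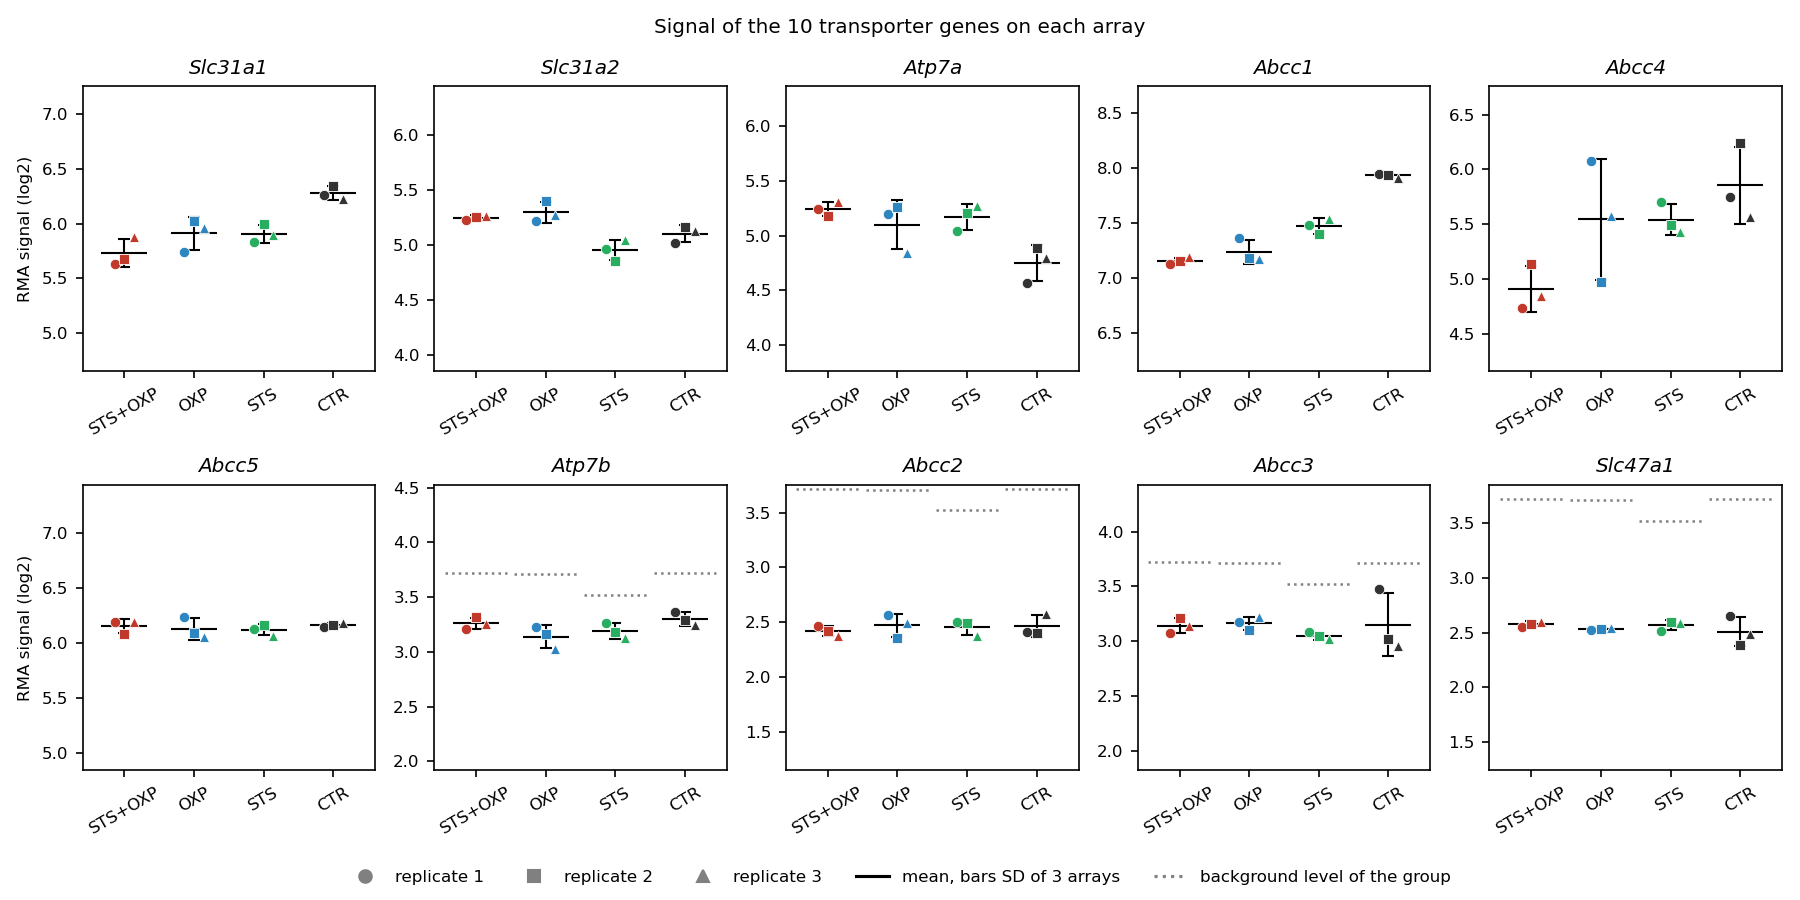
Log2 RMA signal of each of the 10 transporters (vertical axis, the same span of 2.6 log2 units in every panel) on the 3 arrays of STS+OXP, OXP, STS and CTR cells, with symbols for replicates, a line for the mean, bars for the SD and a dotted line for background where it falls within the panel. Abcc1 lay at 7.13 to 7.18 on the STS+OXP arrays and at 7.91 to 7.95 on the CTR arrays, and the last 4 panels lie below background in all groups.

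The uptake carrier Slc31a1 was lower in all 3 treated groups than in CTR cells. Its signal was 5.63, 5.68 and 5.87 on the STS+OXP arrays, 5.74, 6.03 and 5.96 on the OXP arrays, 5.83, 5.99 and 5.89 on the STS arrays and 6.26, 6.34 and 6.22 on the CTR arrays. Every treated array was below every CTR array, while the 3 treated groups overlapped. Slc31a1 fell by 0.55 ± 0.0907 in STS+OXP (log2 change ± standard error, 68.4% of the CTR signal, adjusted p = 0.000302). It fell by 0.37 in OXP (77.6% of CTR, adjusted p = 0.00633) and by 0.37 in STS (77.4% of CTR, adjusted p = 0.0124). These p-values, like all adjusted ones below, come from limma on all 12 arrays with Benjamini-Hochberg adjustment over 17097 genes. Since whole cultures were measured, fewer cells with a transcript and less transcript per cell cannot be told apart.

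STS+OXP cells had the lowest mean of Slc31a1, but it did not differ from OXP beyond the spread. The difference was -0.18, with a 95% interval of -0.38 to 0.01 (adjusted p = 0.437). The difference between STS+OXP and STS was -0.18 as well, with an interval of -0.37 to 0.02 (adjusted p = 0.205). Ordered by mean, the groups ran STS+OXP, STS, OXP and CTR, and of these neighbours only OXP and CTR differed. The fall under STS was lost without STS replicate 1 (log2 change -0.33, adjusted p = 0.0583).

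A second, dimmer probe set of Slc31a1 did not follow the first in starved cells. It read 4.28, 4.22 and 4.19 on the STS+OXP arrays, 4.19, 4.59 and 3.96 on the OXP arrays, 5.15, 5.02 and 5.00 on the STS arrays and 4.51, 4.96 and 4.53 on the CTR arrays. The STS arrays were the highest of all, whereas on the brighter probe set they lay below the CTR arrays, and STS+OXP had the lowest mean on both. Tested among all 28898 probe sets with 1 symbol, it fell by 0.83 in STS+OXP relative to STS (adjusted p = 0.00142) and by 0.44 in STS+OXP relative to CTR (adjusted p = 0.0455). It was 0.39 higher in STS than in CTR (adjusted p = 0.116), a change that was not called. Both probe sets had lower means under OXP than in CTR, with -0.42 on the dimmer one (adjusted p = 0.0533), and only for STS did they point in opposite directions against CTR.

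**Figure D2:**
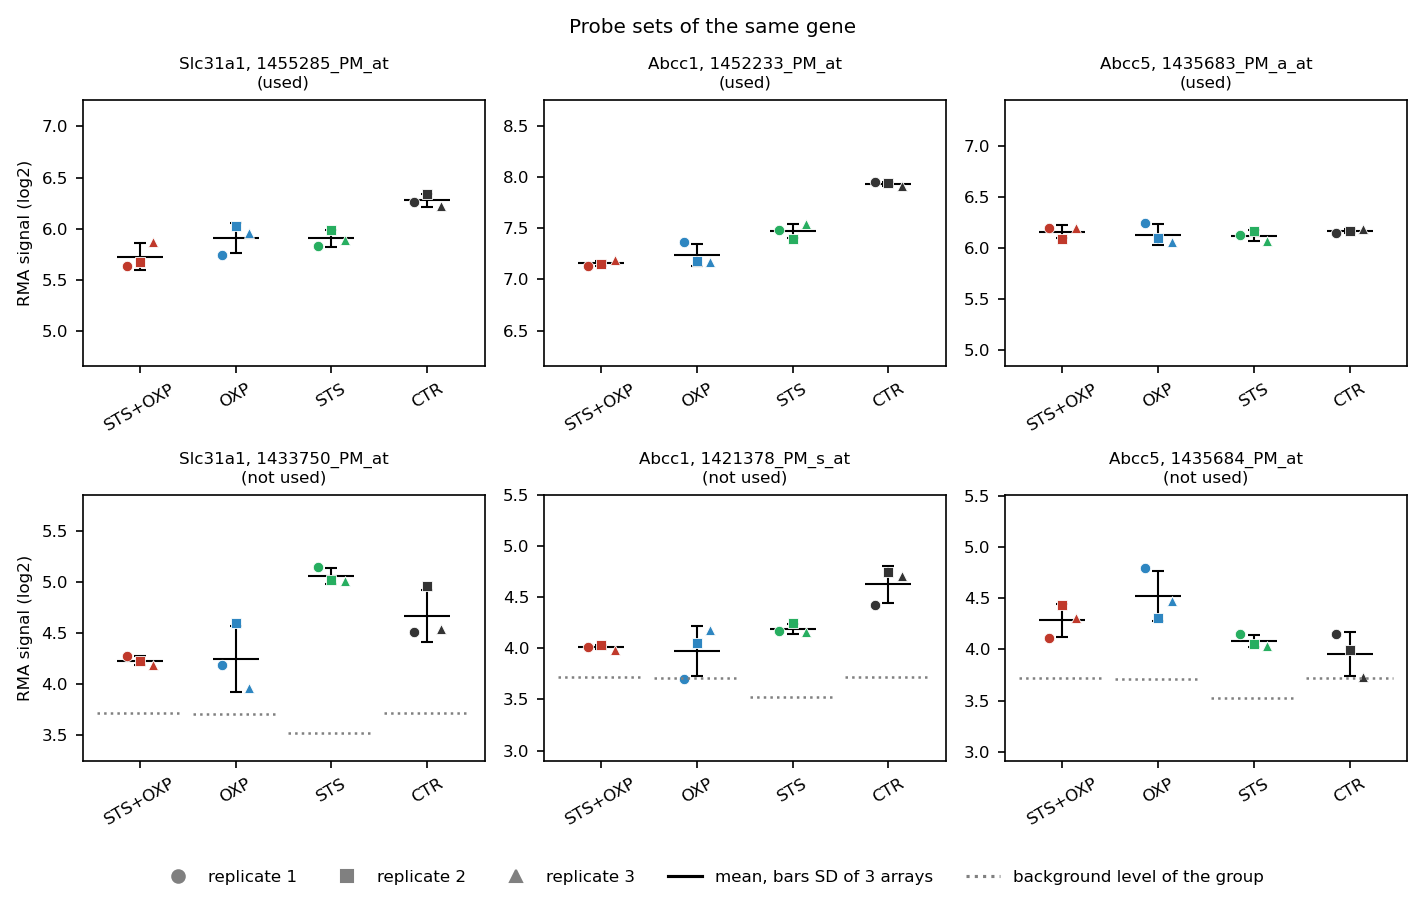
Log2 RMA signal of a pair of probe sets for each of Slc31a1, Abcc1 and Abcc5 on the 3 arrays of STS+OXP, OXP, STS and CTR cells (upper row, the brightest set, lower row, a dimmer one), with symbols for replicates, a line for the mean, bars for the SD and a dotted line for background. The pair of Slc31a1 disagreed in STS cells, at 5.83 to 5.99 on the upper set (below CTR) and 5.00 to 5.15 on the lower set (above CTR).

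Slc31a2 (CTR2), a relative of Slc31a1 found mainly on endosomes and lysosomes and linked to platinum handling, had a smaller change in another pattern. It read 5.23, 5.25 and 5.27 on the STS+OXP arrays, 5.22, 5.40 and 5.27 on the OXP arrays, 4.96, 4.86 and 5.05 on the STS arrays and 5.02, 5.17 and 5.13 on the CTR arrays. The arrays with drug lay above all arrays without it. Slc31a2 rose by 0.30 ± 0.0759 in STS+OXP relative to STS (122.7% of the STS signal, adjusted p = 0.0118) and was 0.34 higher in OXP than in STS (adjusted p = 0.00392). Against CTR it was not called, at 0.14 for STS+OXP (adjusted p = 0.193), 0.19 for OXP (adjusted p = 0.0727) and -0.15 for STS (adjusted p = 0.226). Without OXP replicate 1 it was called for OXP against CTR (0.23, adjusted p = 0.0447), and without STS replicate 2 the call for STS+OXP against STS was lost (0.25, adjusted p = 0.0631). In the order STS, CTR, STS+OXP and OXP no neighbours differed beyond their spread. Fkbp15, the gene between both carriers, was 0.34 higher in STS+OXP than in CTR (adjusted p = 0.0411), 0.32 higher in OXP (adjusted p = 0.0516) and 0.34 higher in STS (adjusted p = 0.0696).

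Atp7a, the copper pump of most cells outside the liver, was higher in each treated group than in CTR cells. It read 5.25, 5.18 and 5.31 on the STS+OXP arrays, 5.20, 5.26 and 4.85 on the OXP arrays, 5.04, 5.21 and 5.27 on the STS arrays and 4.57, 4.88 and 4.80 on the CTR arrays. STS+OXP and STS arrays all lay above the CTR arrays, whereas OXP replicate 3 lay within the CTR range. Atp7a rose by 0.49 ± 0.114 in STS+OXP (140.9% of the CTR signal, adjusted p = 0.00386), by 0.35 in OXP (127.6% of CTR, adjusted p = 0.0300) and by 0.42 in STS (134.0% of CTR, adjusted p = 0.0209). It did not differ between STS+OXP and OXP (0.14, interval -0.10 to 0.39, adjusted p = 0.647). Ordered CTR, OXP, STS and STS+OXP, only CTR and OXP differed among neighbours.

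The rise of Atp7a under OXP lost its call on leaving out more single arrays than any other call against CTR. It was lost without OXP replicate 1 (0.30, adjusted p = 0.0806), OXP replicate 2 (0.27, adjusted p = 0.113), CTR replicate 1 (0.26, adjusted p = 0.141) or CTR replicate 3 (0.38, adjusted p = 0.0547). It was also lost with cyclic loess (0.29, adjusted p = 0.0767), with array quality weights (0.24, adjusted p = 0.142) and in a limma fit of the OXP and CTR arrays alone (adjusted p = 0.101). The rise under STS was lost without CTR replicate 1, STS replicate 2 or STS replicate 3, with adjusted p up to 0.105. The rise in STS+OXP kept its call without any 1 array (0.40 to 0.56). The other Atp7a probe set was at background.

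Abcc1 (MRP1), the exporter of glutathione conjugates found in most tissues, had the lowest adjusted p of the 10 against CTR in each treated group. It read 7.13, 7.15 and 7.18 on the STS+OXP arrays, 7.36, 7.18 and 7.17 on the OXP arrays, 7.48, 7.40 and 7.54 on the STS arrays and 7.95, 7.94 and 7.91 on the CTR arrays. All treated arrays lay below the CTR arrays, and all arrays with drug below the STS arrays. Abcc1 fell by 0.78 ± 0.0712 in STS+OXP (58.3% of the CTR signal, adjusted p = 1.39e-06), by 0.70 in OXP (61.7% of CTR, adjusted p = 3.83e-06) and by 0.46 in STS (72.6% of CTR, adjusted p = 0.000505). Its second probe set fell in the same comparisons, with log2 changes of -0.61 in STS+OXP, -0.65 in OXP and -0.43 in STS.

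On its brightest probe set Abcc1 was also lower with the drug in starved cells. It fell by 0.32 in STS+OXP relative to STS (80.3% of the STS signal, adjusted p = 0.00515), and its mean was 0.23 lower in OXP than in STS (adjusted p = 0.0275, lost without STS replicate 1 or 3 or OXP replicate 2 or 3). STS+OXP and OXP differed by -0.08 (interval -0.24 to 0.07, adjusted p = 0.681). The effect of STS was -0.08 with the drug and -0.46 without it, and the difference between these effects, the interaction, was 0.38 ± 0.101 (adjusted p = 0.0334). That call was lost on leaving out any 1 of 10 of the 12 arrays, the exceptions being STS replicate 3 and OXP replicate 1, with adjusted p up to 0.0905. The second probe set was not called for STS+OXP relative to STS (-0.18, adjusted p = 0.354), for OXP relative to STS (-0.22, adjusted p = 0.246) or for the interaction (0.47, adjusted p = 0.127). Ordered STS+OXP, OXP, STS and CTR, the last 3 differed from one another, and STS+OXP and OXP did not differ.

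**Figure D3:**
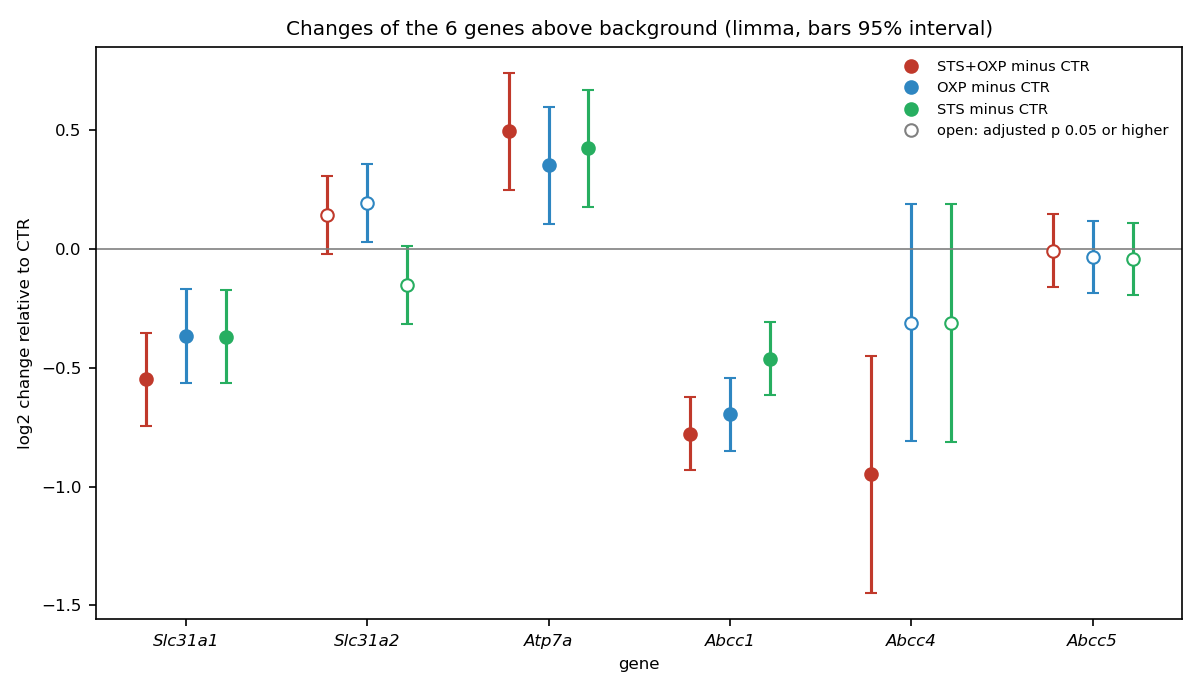
Log2 change of the 6 transporters above background (horizontal axis) in STS+OXP, OXP and STS cells relative to CTR (vertical axis, bars are 95% intervals from limma, 3 arrays a group), with open symbols where the adjusted p was 0.05 or higher. Slc31a1 and Abcc1 lie below 0 and Atp7a above 0 in all 3 groups, and Abcc4 has a filled symbol only for STS+OXP, at -0.95.

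Abcc4 (MRP4), an exporter of cyclic nucleotides and of several drugs, fell in STS+OXP cells. It read 4.73, 5.14 and 4.85 on the STS+OXP arrays, 6.08, 4.97 and 5.58 on the OXP arrays, 5.70, 5.49 and 5.43 on the STS arrays and 5.75, 6.24 and 5.57 on the CTR arrays. STS+OXP arrays lay below all STS and CTR arrays, and OXP replicate 2 fell within their range. The fall in STS+OXP was 0.95 ± 0.231 relative to CTR (51.8% of the CTR signal, adjusted p = 0.00572), and it kept its call without any 1 array (-1.09 to -0.75). OXP alone and STS alone were not called against CTR (both -0.31, adjusted p = 0.377 for OXP and 0.440 for STS), and the interaction was not called either (-0.33, adjusted p = 0.622). The STS value was -0.12 without CTR replicate 2 and -0.45 without CTR replicate 3, and was not called either way.

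Whether the Abcc4 signal in STS+OXP differed from that in OXP depended on 1 array. With all arrays the difference was -0.64 (interval -1.14 to -0.14, adjusted p = 0.292). Without OXP replicate 2, the OXP array that lay closest to STS+OXP, it was -0.92 (adjusted p = 0.0121). Leaving out OXP replicate 1 instead gave -0.37 (adjusted p = 0.598). That same omission made the fall under OXP against CTR a called one (-0.58, adjusted p = 0.0371), whereas without OXP replicate 2 that change was -0.03 (adjusted p = 0.946). Relative to STS, STS+OXP had a mean 0.64 lower (adjusted p = 0.0686), which was called without OXP replicate 1 or 2. It was also called with cyclic loess, array weights, bright genes only and a limma fit of the STS+OXP and STS arrays alone. With 1 array left out its adjusted p ran from 0.0149 to 0.203.

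Abcc5 (MRP5), another exporter of cyclic nucleotides, did not pass the test in any comparison. It lay between 6.05 and 6.24 on all 12 arrays, with changes against CTR of -0.01 in STS+OXP (interval -0.16 to 0.15), -0.03 in OXP (interval -0.19 to 0.12) and -0.04 in STS (interval -0.20 to 0.11). Of its 7 probe sets a dimmer one rose by 0.57 in OXP relative to CTR (adjusted p = 0.00537), with 4.79, 4.31 and 4.47 on the OXP arrays and 4.15, 3.99 and 3.73 on the CTR arrays. The probe sets of Abcc5 thus did not give the same reading for OXP, and which part of the gene each covers was not analysed here.

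Counted over the 10 transporters, 1 rose and 3 fell in STS+OXP relative to CTR, against 16.4% of all genes called higher and 14.2% called lower. In OXP relative to CTR 1 rose and 2 fell, where 17.5% of all genes were higher and 13.9% lower, and in STS 1 rose and 2 fell, where 9.75% were higher and 6.74% lower. With so few members these shares are given as a description. The median change of the 10 was -0.03 in STS+OXP, -0.01 in OXP and -0.11 in STS, beside 0.00, -0.01 and -0.03 over all genes. The arrays did not overlap with those of CTR for 5 of the 10 in STS+OXP, 4 in OXP (with Atp7b, at background, among them) and 3 in STS. Over all genes that share was 44.1% in STS+OXP, 38.1% in OXP and 37.4% in STS.

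Between the treated groups fewer members passed. In STS+OXP relative to STS, Slc31a2 rose and Abcc1 fell, with 10.8% of all genes higher and 11.2% lower, and the same pair was called in OXP relative to STS, with 13.3% higher and 11.3% lower. In STS+OXP relative to OXP 0 of 10 were called by limma, with 1 (Abcc4) at an unadjusted p under 0.05. There 2 genes in all, or 0.0117%, were called, and without OXP replicate 2 it was 6.82%, with Abcc4 among them. In OXP relative to CTR without that array 30.9% of genes were called, and 2 of the 10 transporters. In the interaction 1 of 10, Abcc1, was higher, with 2.53% of all genes higher and 5.76% lower. The comparisons with CTR share the CTR arrays, so their like directions are not independent.

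Each transporter was also set beside the gene whose signal followed it most closely over the 12 arrays, among 9996 other genes above background. Pearson's r was 0.951 for Slc31a1 with Psmd13, 0.945 for Slc31a2 with Mtif2 and 0.963 for Atp7a with Mospd2. It was 0.988 for Abcc1 with Arf2, 0.944 for Abcc4 with 2500002B13Rik and 0.913 for Abcc5 with Stap2. These values describe 12 arrays that fall into 4 groups, and the arrays share their normalization.

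Around the carriers, genes that handle copper inside the cell changed in both directions. For this list and those below, the shares of all genes called against CTR are given for comparison. They were 16.4% higher and 14.2% lower in STS+OXP, 17.5% and 13.9% in OXP, and 9.75% and 6.74% in STS. Of 18 measured genes, 7 rose and 2 fell in STS+OXP, 7 rose and 3 fell in OXP, and 3 rose and 1 fell in STS, all relative to CTR. Cp (ceruloplasmin), the copper-carrying ferroxidase, rose by 2.42 in STS+OXP, 2.30 in OXP and 2.41 in STS. Steap1, of a family of metal reductases at the membrane, fell in all 3 groups, with log2 changes of -1.60 in STS+OXP, -1.65 in OXP and -1.56 in STS. The copper chaperone of superoxide dismutase, Ccs, was called higher in both groups with drug. Ccs rose by 0.69 under OXP, and its means were 7.56 for STS+OXP, 7.63 for OXP and 6.94 for CTR. Commd1, a partner of ATP7A and ATP7B in copper export, was called lower in the same groups. Commd1 fell by 0.86 under STS+OXP, with means of 7.35 for STS+OXP, 7.53 for OXP and 8.205 for CTR. Neither gene was called under STS alone. The median over the list was 0.06 in STS+OXP, 0.09 in OXP and -0.06 in STS.

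Other drug carriers included the P-glycoprotein genes. Of 5 multidrug exporters outside the ABCC family, 2 were called higher in each treated group relative to CTR. Abcb1b rose by 1.22 ± 0.087 in STS+OXP, 1.35 in OXP and 0.49 in STS, with group means of 8.10, 8.22, 7.37 and, in CTR, 6.88. Abcb1a was at background in CTR cells, and its signal was at least 1.05-fold higher in STS+OXP and at least 1.22-fold higher in OXP. In STS its mean of 3.63 lay below the CTR background level of 3.72, so no size of rise is given there. The STS effect on Abcb1b was smaller with the drug than without it (interaction -0.62, adjusted p = 0.00682). None of the 5 other ABCC genes measured was above background in any group.

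Of 7 other entry routes for platinum compounds, 2 rose in STS+OXP and the same 2 in OXP, relative to CTR. The carnitine transporter Slc22a5 rose by 0.44 in STS+OXP and 0.40 in OXP. Lrrc8a, the obligatory subunit of volume-regulated anion channels, rose by 0.35 in STS+OXP and 0.21 in OXP. Organic cation transporter Slc22a2 was at background.

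Genes that make or attach glutathione, which ABCC proteins export with its conjugates, changed in both directions, with more called higher than lower. Among all genes at or above the median signal, 57.4% in STS+OXP, 57.8% in OXP and 32.8% in STS were called in either direction. Of 10 measured, 7 rose and 2 fell in STS+OXP, 6 rose and 2 fell in OXP, and 4 rose and 2 fell in STS, relative to CTR, with medians of 0.40, 0.39 and 0.03. The transferase Gsta4 rose by 2.16 in STS+OXP, 2.11 in OXP and 0.97 in STS, and Gstm1 by 1.64, 1.34 and 0.70 in the same order. Mgst1 was at background in CTR cells and at least 2.49-fold higher in STS+OXP and at least 2.36-fold higher in OXP. Gclm, the modifier subunit of the enzyme that limits glutathione synthesis, and the reductase Gsr were those that fell in both groups with drug.

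**Figure D4:**
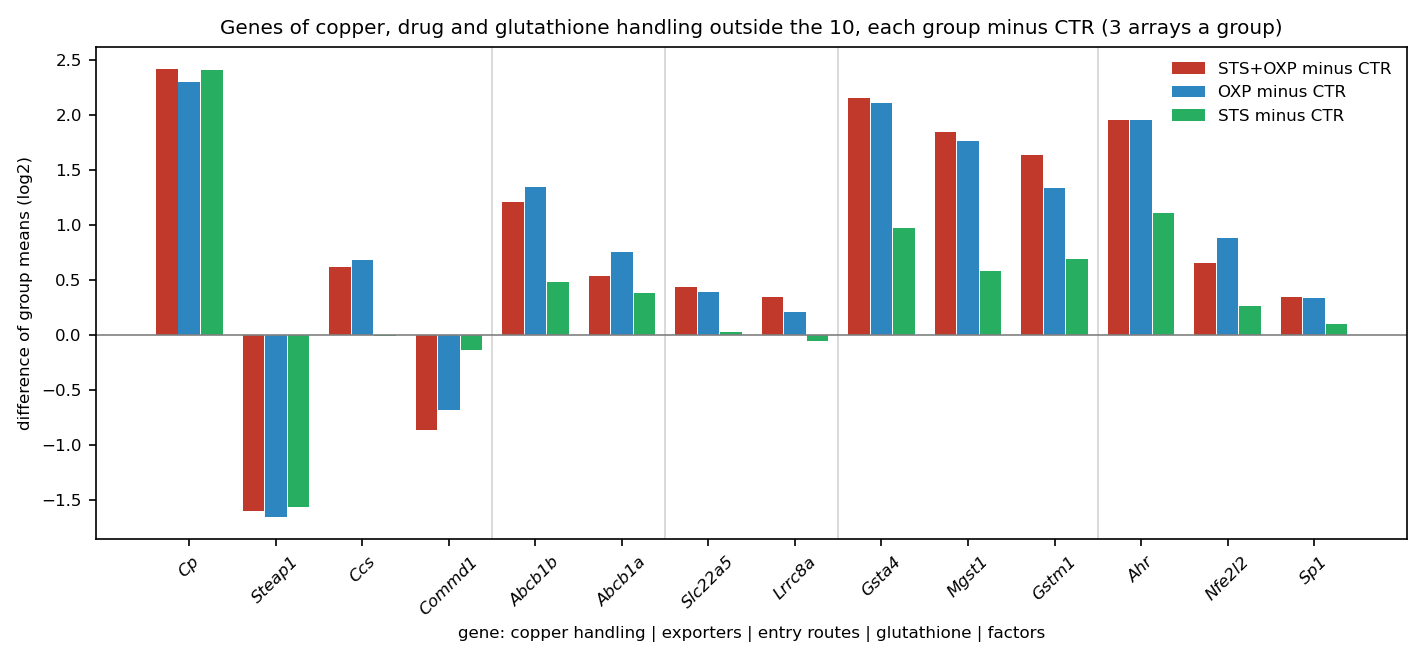
Difference of group means (log2, vertical axis, 3 arrays a group) for STS+OXP, OXP and STS cells relative to CTR, for 14 genes of copper handling, other exporters, other entry routes, glutathione use and transcription factors. Cp is at 2.30 to 2.42 and Steap1 at -1.65 to -1.56 in all 3 groups, while Gsta4 is at 2.16 in STS+OXP and 0.97 in STS, and Abcb1a and Mgst1 were at background in CTR, so their bars have only a lower limit.

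Of 6 scaffold genes that anchor ABCC exporters in the membrane, 2 rose and 2 fell in STS+OXP and in OXP, and 1 rose in STS, relative to CTR. Radixin (Rdx), which holds ABCC2 at the canalicular membrane of liver cells, fell by 0.63 in STS+OXP and by 0.54 in OXP. Abcc2 itself was at background here. Ezr was also called lower in both groups. Slc9a3r1 rose by 0.50 in STS+OXP, 0.37 in OXP and 0.73 in STS, and Msn by 0.46 in STS+OXP and 0.54 in OXP. Of 6 transcription factors linked to these transporters, 3 rose in STS+OXP with 1 fall, 3 rose in OXP, and 2 rose and 1 fell in STS. The fall was that of Nr1i2, with a mean of 3.92 in CTR. Its means of 3.62 in STS+OXP and 3.51 in STS were at background, so no size is given. The xenobiotic receptor Ahr rose by 1.96 in STS+OXP, 1.96 in OXP and 1.11 in STS. Nfe2l2 (NRF2), which binds the antioxidant response element, rose by 0.66 in STS+OXP, 0.88 in OXP and 0.27 in STS, and Sp1, which binds the GC box, by 0.35 in STS+OXP and 0.34 in OXP. Of 8 measured targets of p53, which responds to DNA damage, 8 rose in STS+OXP and 7 in OXP. Trp53inp1 rose by 4.20 in STS+OXP and 4.185 in OXP, Mdm2 by 3.02 and 3.42, and Cdkn1a (p21) by 2.87 and 2.95. In STS 1 of the 8 rose (Trp53inp1, by 1.12) and 4 fell (Bbc3, Ccng1, Phlda3 and Sesn2). The list's median was 2.14 in STS+OXP, 2.49 in OXP and -0.32 in STS.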

How the data were processed

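Total RNA of CT26 cells was labelled for Affymetrix mouse arrays, 3 per group in 4 groups, grouped by sample title. The log2 values deposited by the authors were made by RMA, with R 3.02, as the submitters' processing notes state. RMA subtracts background, equalizes arrays and summarises probes. Single-probe signals were not used here. No further normalization or filter was applied. Of 45141 probe sets, 28898 had 1 symbol, which gave 17097 genes, each by its brightest probe set.

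Group means of all 12 arrays were fitted in 1 model with limma 3.58.1 in R 4.3.3 (8 residual degrees of freedom, prior 5.05), two-sided, with Benjamini-Hochberg adjustment and calls at adjusted p under 0.05. The interaction is the STS effect with OXP minus that without. The fit was tested on simulated data. The number of arrays limits the precision. The design named the highest of 27 B. subtilis control sets as background. Some of these carry spiked-in signal (maximum 5.64 to 6.42), so 22 antigenomic sets replaced them. Under the rule of the design 3 of the 10 transporters were above background in at least 1 group. Abcc1 was so in every group, Slc31a1 only in CTR, and Abcc5 only in STS+OXP and CTR. Slc31a2, Atp7a and Abcc4 were above it in no group. The antigenomic set of highest GC content (4.72 to 5.88) was left out.

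The 10 members and all lists were chosen with earlier results of these data known. Named genes are all 10 members, up to 3 called genes of largest change per list and comparison with CTR (cell markers aside), and the most alike gene of each member. Others were chosen after their values were seen. Promoter windows are RefSeq's (GRCm38.p6). Alternatives were median centring, cyclic loess, averaged or specific probe sets, bright genes only, eBayes with trend and robust, array weights, fewer arrays in the fit, a replicate block, the methods' t-test, a fold of at least 2 and each array left out.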

Additional observations from a re-analysis of the deposited data

Results flagged for a closer look

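Several results among the transporters were flagged by fixed rules. For Abcc1 the effect of STS with OXP minus that without OXP differed by 0.38 on the log2 scale (limma, adjusted p = 0.0334). On probe sets that the comparisons did not use, the rule looked only for rises, so falls were not listed. All 3 arrays of a treated group lay above all 3 CTR arrays in 4 cases, with the mean of the treated group above background. The share of all probe sets that meet this rule was not computed. Over all genes, in either direction and by the brightest set, 44.1% did not overlap with CTR in STS+OXP. That share was 38.1% in OXP and 37.4% in STS. For Slc31a1 the difference between STS and CTR was 0.39, for Slc31a2 that between STS+OXP and CTR was 0.18, for one of Abcc5 that between OXP and CTR was 0.57, and for another of Abcc5 that between STS and CTR was 0.15. Tested among 28898 probe sets, only the third of these was called (adjusted p = 0.00537), and the other three had adjusted p of 0.116, 0.349 and 0.191.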

How the results depend on the processing

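Of 990 results for the 6 transporters above background under the listed alternatives, 902 kept direction and call, 45 lost the call, 12 gained it, 2 reversed, and 29 turned sign without a call on either side. Most of these comparisons were not called in the main fit, so keeping the call mostly meant staying uncalled. Only results called in the main fit could lose a call. The 2 that reversed were Slc31a1 with all its probe sets averaged, at 0.0093 for STS relative to CTR (adjusted p = 0.969) and -0.40 for OXP relative to STS (adjusted p = 0.0077). The probe sets on their own, an alternative chosen after seeing the data, turned the direction for Slc31a1 (0.39 for STS relative to CTR, -0.81 for OXP relative to STS) and Abcc5 (0.57 and 0.21 for OXP relative to CTR). After Benjamini-Hochberg adjustment the methods' t-test called 2 members in STS+OXP relative to CTR and 0 in OXP or STS relative to CTR, in STS+OXP relative to STS and in OXP relative to STS (of all genes 18.5%, 6.05%, 4.18%, 12.7% and 2.35% in the order STS+OXP, OXP and STS relative to CTR, then those 2). At an unadjusted p under 0.05 it called 4, 2, 3, 3 and 2 members, and 33.4%, 25%, 23.9%, 29.6% and 20.3% of all genes. For Atp7a in OXP relative to CTR the unadjusted call was lost too. With a fold of at least 2 required, 0 members were called in these 5 comparisons and 0 in the interaction. The share of all genes called at that fold was not computed, so these counts have nothing to be set against. For OXP relative to STS 1 was called with eBayes with trend and robust (24.4% of all genes) and 1 with only the arrays compared (19.8%). For the interaction 0 were called with trend and robust, beside 8.15% of all genes. With 1 array left out, counts of called members ran 4 to 4 for STS+OXP relative to CTR, 2 to 4 for OXP, 2 to 3 for STS, 1 to 3 for STS+OXP relative to STS, 0 to 1 for STS+OXP relative to OXP, 1 to 2 for OXP relative to STS and 0 to 1 for the interaction. Of all genes 26.8% to 34.3%, 27.3% to 32.1%, 11.3% to 20.6%, 17.1% to 26.5%, 0% to 6.82%, 20.1% to 26.5% and 5.59% to 10.3% were called in the same order. Without OXP replicates 1 and 2 together, 1 OXP array was left, so only changes are given. In OXP relative to CTR they were -0.76 for Abcc1, -0.31 for Slc31a1 and 0.10 for Atp7a. Replicate numbers did not pair the arrays: same-numbered arrays correlated at -0.199 to 0.102 in their deviations, and 2 of 12 were most like their own number. With the replicate block 0 members were called in the interaction (adjusted p = 0.0572 for Abcc1), beside 7.31% of all genes. In OXP relative to CTR 3 were called with the block, beside 30.7% of all genes. The causes of these differences were not tested. Signals near background limit what 3 arrays can show for Atp7b, Abcc2, Abcc3 and Slc47a1.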
